A study of Homo sapiens with 21 samples.

Results

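H3K4me3, trimethylation of lysine 4 of histone H3, is the chromatin mark best known for marking the start sites of active genes. It is laid down by the SET1 and KMT2 (MLL) methyltransferase complexes and removed by KDM5 demethylases, which need iron and oxygen. Blocks of the mark inside introns lie away from the annotated gene ends, and are known from start sites that an annotation does not list as a gene end, from alternative promoters and from active enhancers.

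Described here are the intronic regions that carried an H3K4me3 peak in every library of a study of RS4;11, a cell line from a B-cell precursor acute lymphoblastic leukaemia with a KMT2A-AFF1 fusion. The cells were cultured for 24 h in complete medium (+Asn), in medium lacking asparagine (-Asn), or in medium lacking asparagine to which ferric nitrate (10 µM) and hinokitiol (0.75 µM), which ferries iron through membranes, had been added (-Asn+Fe). Each medium had 3 H3K4me3 chromatin immunoprecipitation (ChIP) libraries and 3 RNA libraries, beside 3 input libraries that were not used here. All groups are the same line with its fusion, and iron and hinokitiol were given together, so their effects cannot be told apart. The labels do not say whether replicates were separate cultures, and the p-values therefore reflect library-to-library spread that may be technical only.

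A region was taken when a peak had been called in it in all 9 libraries, when it lay over 1 kb from the outer 5′ end of every protein-coding and lncRNA gene, and when it fell inside a gene without touching a listed exon. That gave 755 regions of the 19279 in the deposited table (3.92%) and of the 13883 called in all 9 libraries (5.44%). The regions were thus selected on peak calls in all 9 libraries and on position, which are no finding about them. Of 3049 intronic regions in all, 24.8% were constant, and of 10946 promoter regions 92.6% were. The members just inside the distance limit, named by host, were AC023787.2, 1003 bp from a 5′ end, IGFBP5 at 1009 bp and SF3A2 at 1076 bp, and those just outside it lay 995 bp from ZNF124, 971 bp from LNX1 and 957 bp from VCAN.

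The RNA libraries held 29362707 to 42478518 counts each. The ChIP table holds peak positions alone, with no read counts, so the depth of the ChIP libraries is unknown, and the measure per library is the covered width, the base pairs called as peak inside a region. In the RNA, 12 of 12 precursor B cell markers exceeded 1 CPM (counts scaled to library size), with sums of 2952 to 3035 CPM per +Asn library, 2606 to 2683 CPM per -Asn library and 2337 to 2423 CPM per -Asn+Fe library. No T cell marker of 7 and no erythroid marker of 4 reached 1 CPM. Of 6 myeloid markers, CSF1R and ITGAM did, with a sum for the list of 13.1 to 19.4 CPM over all libraries, as did COL1A1 of 3 fibroblast markers. In bulk samples a lower level of a gene can be fewer cells or less RNA per cell, which cannot be told apart. Among the RNA libraries, -Asn replicate 1 stood apart, with a chi-square per degree of freedom of 40.7 and 45.0 against the other -Asn libraries, which differed from each other by 6.17. The other groups' pairs ran from 3.91 to 16.9.

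The 5′ ends used by the rule come from the count table, and other annotations place further starts in these introns. RefSeq (GRCh38.p14) lists a gene or transcript start inside 43 of the 755 regions (5.7%), against 79.3% of constant promoter regions, 52.5% of constant exonic regions, 10.3% of constant intergenic regions and 1.05% of the 2294 intronic regions called in 1 to 8 libraries. The gap to promoter regions is largely set by the rule, which parts the classes by distance from annotated gene starts. A wider region can also hold more starts, and the classes were not matched for width. Windows of 300 bases around 3 such starts, from 250 bases before to 50 after, are printed. They are those with a start inside a region named by the rules given under processing, and run from CpG-poor to CpG-rich. CpG dinucleotides, which promoters often hold in clusters, are in capitals, and each is read 5′ to 3′ on the strand of the RefSeq gene.
BALR6, in an intron of TBC1D5, chr3:17962302-17962601, plus strand: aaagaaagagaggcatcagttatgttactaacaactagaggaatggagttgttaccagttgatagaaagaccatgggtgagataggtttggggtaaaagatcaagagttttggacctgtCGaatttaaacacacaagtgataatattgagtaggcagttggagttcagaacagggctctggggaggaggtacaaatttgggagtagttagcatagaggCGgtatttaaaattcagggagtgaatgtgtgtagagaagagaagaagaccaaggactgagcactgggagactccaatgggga
LOC112268198, in an intron of SEPT9, chr17:77444667-77444966, plus strand: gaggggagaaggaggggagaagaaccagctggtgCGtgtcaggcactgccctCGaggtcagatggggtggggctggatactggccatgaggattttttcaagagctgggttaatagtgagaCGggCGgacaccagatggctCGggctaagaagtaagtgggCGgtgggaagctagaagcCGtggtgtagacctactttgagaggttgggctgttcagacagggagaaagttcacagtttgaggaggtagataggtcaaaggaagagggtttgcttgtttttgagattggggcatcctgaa
LOC107985687, in an intron of BCOR, chrX:40106437-40106736, minus strand: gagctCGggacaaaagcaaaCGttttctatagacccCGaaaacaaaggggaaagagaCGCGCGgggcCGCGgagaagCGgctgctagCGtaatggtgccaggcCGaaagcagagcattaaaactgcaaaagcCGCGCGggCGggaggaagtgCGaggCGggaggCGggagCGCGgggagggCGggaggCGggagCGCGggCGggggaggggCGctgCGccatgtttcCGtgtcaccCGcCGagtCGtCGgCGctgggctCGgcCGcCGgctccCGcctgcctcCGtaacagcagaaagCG

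The BALR6 window held 2 CpG dinucleotides and 42.7% G and C, the LOC112268198 window 7 and 53.7%, and the LOC107985687 window 39 and 68%. Over the 47 windows with a start inside a constant intronic region, the median was 14 CpG (range 2 to 46) and 61.3% G and C. The median of all 35116 windows in the RefSeq table was also 14 CpG, with 58.7% G and C. The letters GGGCGG, searched on both strands, occurred in 24 of the 47 windows (51.1%) and in 45% of all windows. TATAAA occurred in 3 of the 47 (6.38%) and in 11.5% of all. A match here describes letters and shows no bound factor.

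A distance over 1 kb and a place inside a gene were set by the rule. No other intronic sequence was taken as a baseline. The regions lay at widely differing distances from outer 5′ ends, mostly in long genes. Their median distance to the nearest outer 5′ end was 19386 bp (quartiles 7954 and 45227, highest 276443), 231 (30.6%) lay within 10 kb of one, and 53 (7.02%) lay over 100 kb away. That nearest 5′ end belonged to the host gene, the gene around the region, for only 352 (46.6%). The host gene had a median length of 118.6 kb, and the midpoint of the region stood at a median of 40.1% of its length from the 5′ end. The first intron held 180 (23.8%), and 446 (59.1%) lay in the 5′ part before the middle of the gene. Protein-coding hosts held 564 (74.7%) and 191 (25.3%) lay in lncRNA genes alone. The plot of distance and place in the host shows both spreads.

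**Figure D1:**
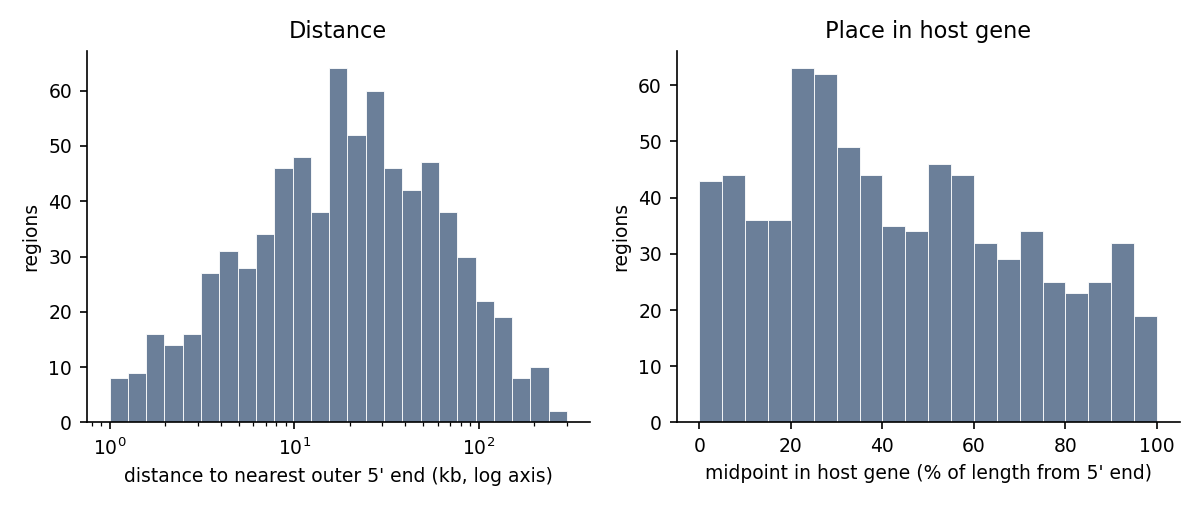
Left, distance of each of the 755 constant intronic regions to the nearest outer 5′ end of a protein-coding or lncRNA gene (kb, log axis). Right, midpoint of each region as a percentage of the host gene's length from its 5′ end; bars count regions, and the medians are 19386 bp and 40.1%.

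They were narrow. The mean width over 9 libraries had a median of 855 bp (quartiles 593 and 1230, range 292 to 9177), against 948 bp for the 1046 constant intergenic regions, 1465 bp for the 1947 exonic and 1867 bp for the 10135 promoter regions. In 530 regions (70.2%) every library held a single peak. Only 60 regions exceeded 2 kb on average and 10 exceeded 4 kb. Width also varied more between replicates. The median standard deviation of log2 width within a medium was 0.21 in the intronic, 0.146 in the intergenic, 0.107 in the exonic and 0.0786 in the promoter regions. The classes were not matched for width here. The stretch inside the outer peak edges of all 9 libraries covered a median of 49.2% of the merged region. It was empty in 20 regions. Gaps between peaks count in it, so the stretch called in all 9 libraries can be shorter.

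Members on chromosome 21 made up 10.7% of that chromosome's constant regions, the highest share, and those on chromosome 16 made up 3.44%, the lowest. The 755 regions fell in 648 genes when each was given 1 host, 568 of them with a single region and 17 with at least 3. FIRRE, a long non-coding RNA gene of the X chromosome built around tandem repeats, held 10. AL589693.1, a lncRNA gene, BCOR, which encodes a corepressor that binds BCL6, and GRAMD4 held 4 each. Of the genes tied at 3, the lncRNA genes AC093916.1 and AL445242.1 came first by name and are described below.

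The 6 widest regions reached 5 kb or more and include loci known from leukaemia. The widest, in the last intron of AL589693.1 (chr6:156217966-156228554), covered 10329, 9359 and 9203 bp in the +Asn libraries, 7618, 9707 and 8700 bp in -Asn, and 9875, 9067 and 8738 bp in -Asn+Fe. Its neighbour in the same intron (chr6:156230286-156237029) averaged 6080 bp. The region in PAN3 (chr13:28225601-28235349), a gene for a subunit of the deadenylase that trims poly(A) tails, covered 7895, 8211 and 7741 bp in +Asn, 7720, 9280 and 7605 bp in -Asn, and 8111, 7500 and 7000 bp in -Asn+Fe. It lay 87095 bp from the PAN3 5′ end and 125.0 kb from that of FLT3, the receptor tyrosine kinase gene of early blood cells. CDK6, a cell cycle kinase gene and known target of KMT2A fusions, held a region of 6076 bp on average (chr7:92740720-92747871). GRIN2B, a glutamate receptor subunit gene, held one of 7039 bp (chr12:13954956-13962945), and TBC1D5 the 5531 bp region (chr3:17961439-17967921) with the BALR6 start printed above. The +Asn and -Asn libraries overlapped in all 6. In GRIN2B, CDK6 and TBC1D5 each -Asn+Fe library was narrower than any +Asn library, but none of the 6 regions passed the width test described next in any comparison. With widths centred on library medians, 3 were narrower in -Asn: GRIN2B (log2 -0.22, limma adjusted p = 0.00218), CDK6 (-0.23, 0.0173) and the widest AL589693.1 region (-0.25, 0.0219). GRIN2B, TBC1D5 and CDK6 were then also narrower in -Asn+Fe than in +Asn (adjusted p = 0.00233, 0.0197 and 0.0256).

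Between -Asn and +Asn, constant intronic regions became wider far more often than narrower. Widths were compared on the log2 scale with limma over all 13883 constant regions, with Benjamini-Hochberg adjusted p under 0.05 as the threshold. Of the 755 members, 164 (21.7%) were wider and 9 (1.19%) narrower, where the same test called 14.6% of all constant regions wider and 1.45% narrower. The median log2 change was 0.24 in the members and 0.09 over all regions. With widths centred on library medians it was 0.15 in the members and -0.004 over all regions, and 136 members were wider and 23 narrower. The members' median width was 723, 763 and 688 bp in the +Asn libraries, 808, 1052 and 945 bp in -Asn, and 977, 840 and 882 bp in -Asn+Fe. Every starved library thus exceeded every +Asn library, as it did for intergenic regions, and as the plot of medians by library shows the shift was smaller at promoters. The number of regions called was higher alongside, with 14741 to 15230 per +Asn library, 15554, 17448 and 16507 for the -Asn libraries and 17206, 15891 and 16384 with iron, and its part in the widths was not tested.

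**Figure D2:**
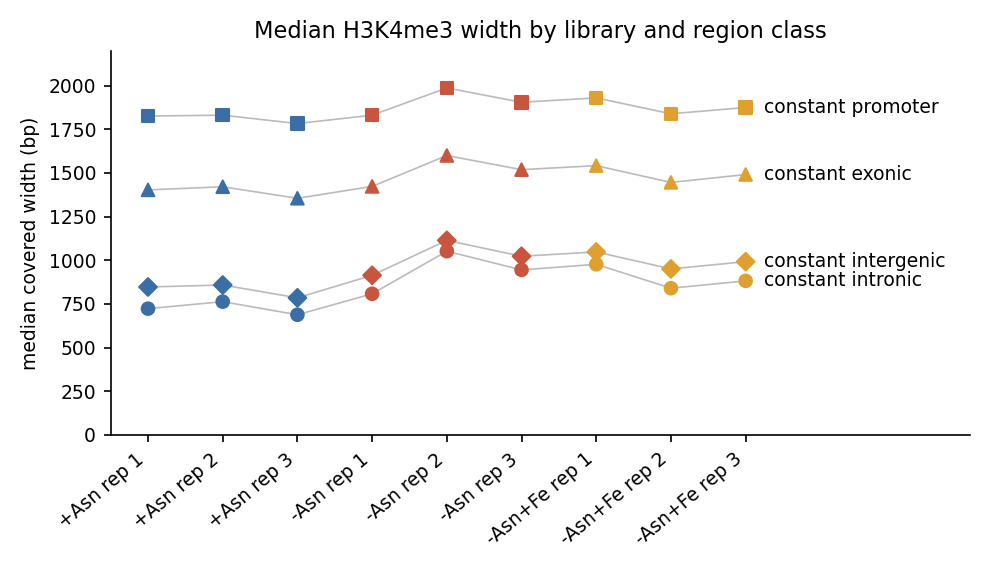
Median covered width (bp, axis from 0) of the constant regions of each class in each of the 9 H3K4me3 libraries; squares are promoter, triangles exonic, diamonds intergenic and circles intronic regions, and colour marks the medium. Intronic medians run from 688 to 763 bp in +Asn and from 808 to 1052 bp in the 6 asparagine-free libraries.

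Regions under 600 bp had larger median log2 changes than regions above 2 kb in every class. In the members the share called wider did not follow that order. Shares are therefore given within width ranges. Among regions of 600 to 1000 bp, 71 of 267 intronic members (26.6%) were wider in -Asn, against 24.3% of intergenic, 22.6% of exonic and 17.8% of promoter regions. Under 600 bp the shares were 11.3% for intronic and 14.8% for promoter regions, and above 2 kb 16.7% and 12.1%. From 1000 to 2000 bp they were 26.1% for intronic, 26.9% for intergenic, 17.5% for exonic and 12.7% for promoter regions. No test of these differences was made. With a smooth trend on width removed per library (cyclic loess), 86 members were wider and 30 narrower. The median log2 change was then 0.04 in the members and -0.0003 over all regions. The shares of all constant regions called with centred widths or cyclic loess were not computed. Leaving out -Asn replicate 2 left 74 wider and leaving out -Asn replicate 3 left 85, while 200 were wider without -Asn replicate 1, the -Asn library with the fewest regions.

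**Figure D3:**
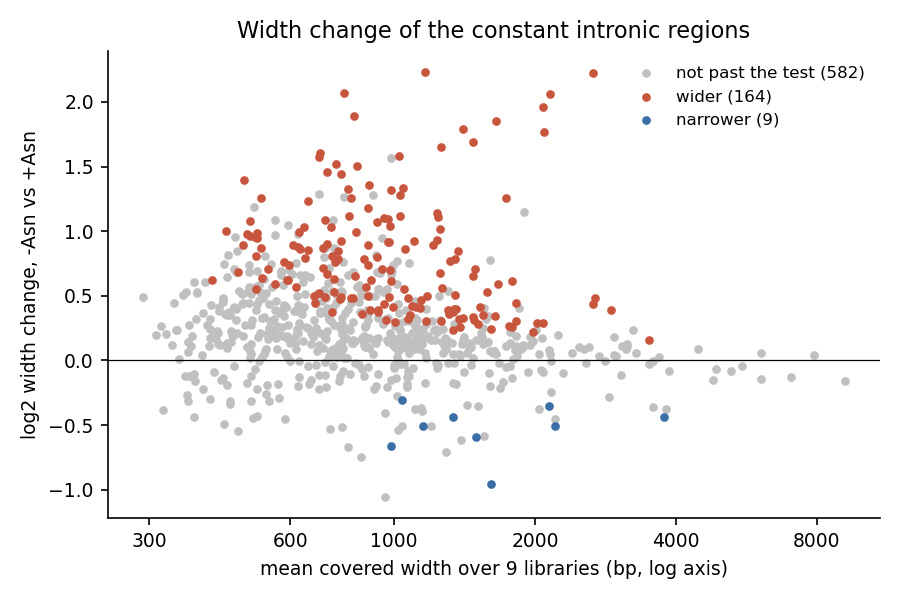
Log2 width change from +Asn to -Asn of each of the 755 constant intronic regions against its mean width over 9 libraries (bp, log axis). Red points are the 164 wider and blue points the 9 narrower regions by limma (adjusted p under 0.05), grey points the other 582; the spread narrows as width grows, and no region above 4 kb is coloured.

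Of the 164 wider members, 152 (92.7%) had both mean edges farther out in -Asn, by medians of 180 bp on the upstream side of the host and 192 bp on the downstream side. Among the 582 members not called, 315 (54.1%) did. Of the 9 narrower members, 8 had both edges farther in. Edges and widths come from the same peaks, so these shares follow in large part from the width calls.

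The largest changes were several-fold. In DIP2C, a gene of the disco-interacting protein family, an intronic region (chr10:305276-307282) covered 315, 362 and 391 bp in +Asn, 1524, 1888 and 1604 bp in -Asn, and 1568, 1441 and 1411 bp in -Asn+Fe. All 6 asparagine-free libraries lay far above the +Asn libraries, though no overlap between -Asn and +Asn was a condition of its choice. The log2 change to -Asn was 2.23 (SE 0.11, limma adjusted p = 3.20e-06), a 4.70-fold difference.

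A second region of AL589693.1 (chr6:156201943-156206130), beside the widest member of all, went from 707, 824 and 636 bp in +Asn to 3048, 3778 and 3301 bp in -Asn and 4114, 4099 and 3425 bp in -Asn+Fe. Its log2 change to -Asn was 2.23 (SE 0.11, limma adjusted p = 3.14e-06), while the 2 wide blocks beside it, at -0.16 and 0.06, did not pass the test. No test compared these blocks with each other.

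AGO2, which encodes the slicing Argonaute protein of small-RNA silencing, held a region (chr8:140596587-140599769) of 629, 701 and 748 bp in +Asn, 2446, 3183 and 3072 bp in -Asn and 2955, 2729 and 2956 bp in -Asn+Fe. Its log2 change was 2.06 in both comparisons with +Asn (SE 0.10, limma adjusted p = 2.97e-06 and 3.00e-06). The region in ARHGEF10 (chr8:1947545-1951075) covered 700, 765 and 693 bp in +Asn, 2314, 3302 and 2852 bp in -Asn and 2629, 2661 and 2797 bp in -Asn+Fe. Both stayed apart from +Asn in every library of both asparagine-free media, which for -Asn was a condition of their choice.

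RGS12, a regulator of G-protein signalling, behaved less evenly. Its region (chr4:3301699-3303389) covered 324, 253 and 301 bp in +Asn, 1381, 1268 and 1033 bp in -Asn, and 1426, 654 and 381 bp in -Asn+Fe, where the 3 libraries spread widely. The log2 change to -Asn was 2.07 (SE 0.37, limma adjusted p = 0.00629), and that of -Asn+Fe against +Asn, 1.28 (adjusted p = 0.0483), was lost under 10 of the alternatives tried.

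In SEPT9, a septin cytoskeleton gene, the region with the LOC112268198 start (chr17:77444207-77446712) covered 833, 389 and 650 bp in +Asn, 2132, 2156 and 2172 bp in -Asn, and 2227, 2030 and 2242 bp in -Asn+Fe. The asparagine-free libraries lay close together, while the +Asn libraries spread from 389 to 833 bp. The log2 changes were 1.86 in both comparisons (SE 0.21, limma adjusted p = 0.000419 and 0.000427).

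Narrowing was rarer and smaller. The region in MDS2, listed as a lncRNA gene (chr1:23599284-23602083), covered 2772, 2551 and 2357 bp in +Asn, 965, 1701 and 1381 bp in -Asn, and 977, 709 and 1075 bp in -Asn+Fe. Its log2 change was -0.96 in -Asn (SE 0.20, limma adjusted p = 0.0111) and -1.49 in -Asn+Fe (adjusted p = 0.00116). PTPRC, the gene of the leukocyte phosphatase CD45, held a region (chr1:198679111-198681197) of 2085, 1935 and 1704 bp in +Asn, 1231, 1350 and 1203 bp in -Asn and 1551, 1173 and 1231 bp in -Asn+Fe, a log2 change of -0.59 in -Asn (adjusted p = 0.00696). Both regions lost width in every asparagine-free library relative to every +Asn library, which for -Asn was a condition of their choice. The others named among the narrower were in FGF6, a fibroblast growth factor gene (log2 -0.51), HPN-AS1, a lncRNA gene (-0.51), and TIFA, a signalling adaptor gene (-0.44). The HPN-AS1 call was lost without +Asn replicate 3.

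**Figure D4:**
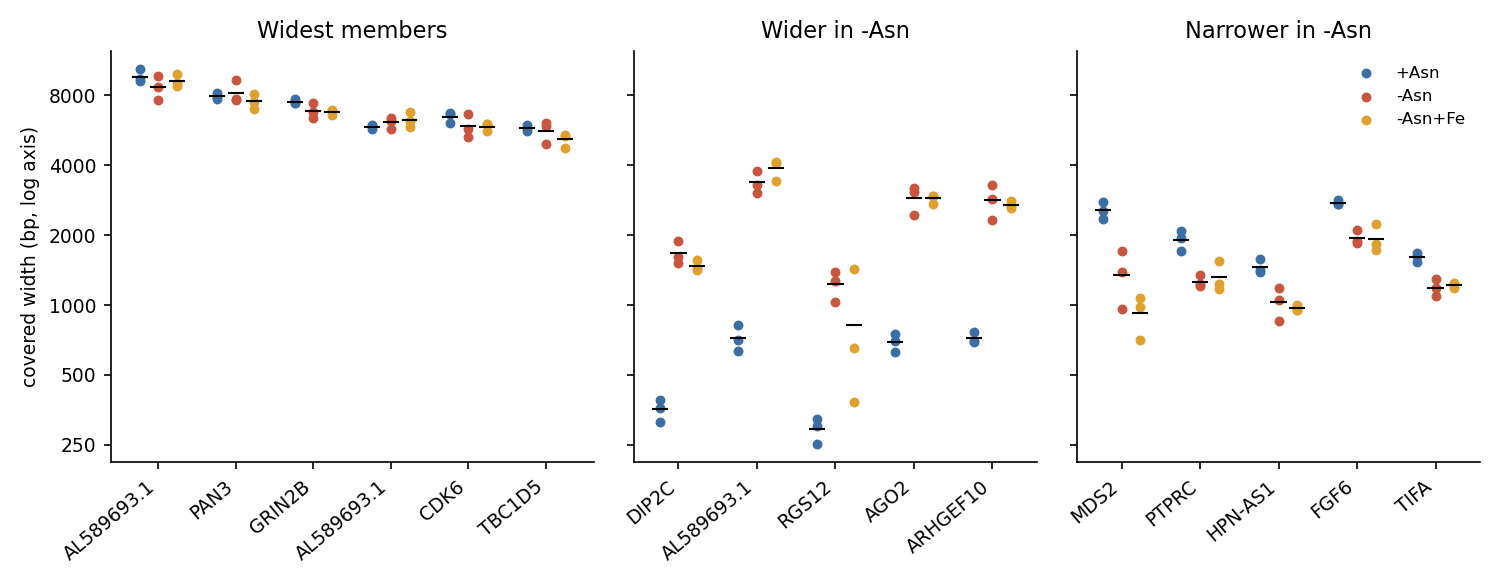
Covered width (bp, log axis) in each H3K4me3 library, by host gene. The left panel holds the 6 widest constant intronic regions. The middle panel holds the 5 largest widenings from +Asn to -Asn and the right panel the 5 largest narrowings. Both were taken only from members that passed the width test and whose -Asn and +Asn widths do not overlap. The lack of overlap in these panels was thus set by the choice. Points are libraries (3 per medium) and black bars their means.

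Adding iron with hinokitiol to asparagine-free medium gave no called width change in the members. Between -Asn+Fe and -Asn limma called 0 members wider and 0 narrower, where the background was 0% of all 13883 regions in each direction. At an unadjusted p under 0.05, 79 members passed (10.5%), 30 wider and 49 narrower, against 7.51% of all regions, and the lowest adjusted p of a member was 0.329. The median log2 change was -0.01. A missed threshold does not show that widths were alike. MDS2, with a log2 change of -0.54 (adjusted p = 0.577), and KCNJ6, with -0.98 (0.534), had large estimates with wide spread.

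Set against +Asn, the iron-treated libraries also had more wider than narrower members. There 149 members (19.7%) were wider and 15 (1.99%) narrower, with a background of 11.7% and 1.92%. Cyclic loess changed this to 76 and 34. The count of wider members was 54 without -Asn+Fe replicate 1, 95 without -Asn+Fe replicate 2, 76 without -Asn+Fe replicate 3 and 81 without +Asn replicate 3. Both comparisons use the same +Asn libraries. Of the wider members, 97 were called in both, 59.1% of those of -Asn and 65.1% of those of -Asn+Fe, and 7 narrower members were shared (77.8% and 46.7%).

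Among narrower members of -Asn+Fe without overlap with +Asn, the 5 with the largest change were in MDS2 and in 4 other genes. The regions of those 4 were not called in -Asn. With only the 6 libraries compared in the fit, 3 of these 4 were called in -Asn too: LGR6 (limma adjusted p = 0.0308), KCNJ6 (0.0364) and PTPRR (0.0388). KCNJ6, a potassium channel gene, held a region (chr21:37742603-37744089) of 1374, 1307 and 1253 bp in +Asn, 608, 1067 and 736 bp in -Asn, and 641, 431 and 224 bp in -Asn+Fe, a log2 change of -1.73 (SE 0.33, limma adjusted p = 0.00797) against +Asn. LGR6, a gene for an R-spondin receptor, held one (chr1:202247205-202251186) of 2755, 3406 and 2911 bp in +Asn, 1894, 2383 and 2364 bp in -Asn, and 1868, 1114 and 1144 bp in -Asn+Fe (log2 -1.17, adjusted p = 0.00264). Both were lower in each asparagine-free library than in any +Asn library, which for -Asn+Fe was a condition of their choice. The regions of PTPRR, a phosphatase gene, and PPP1R16B, a regulatory subunit gene of protein phosphatase 1, had log2 changes of -1.30 (adjusted p = 0.0115) and -0.90 (0.0262), the latter lost under 6 alternatives.

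The host genes ranged from silent to abundant. Of 711 genes holding a member, 502 had enough counts to be tested with edgeR's quasi-likelihood test over 17939 genes. The mean over 9 libraries was under 1 CPM in 292 hosts and at least 10 CPM in 297, and 25 hosts had 0 counts in all 9 libraries, which allows up to 0.0088 CPM (3 counts over all libraries, counting error only). ARHGEF10 and AL445242.1 were among those with 0 counts. A constant promoter region lay within 1 kb of the host's own outer 5′ end for 436 members (57.7%). Promoters farther inside a host were not counted, and no such share was taken for other genes.

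Host RNA changed in both directions in every comparison. Between -Asn and +Asn, 164 of the 502 tested hosts rose (32.7%) and 185 fell (36.9%), where edgeR called 31% of all tested genes higher and 30.2% lower. With library totals in place of TMM factors the split was 202 and 131, because that scaling moves the median of all genes from 0.04 to 0.25. Between -Asn+Fe and -Asn 92 hosts rose and 84 fell (background 14% and 16.8%; 109 and 70 with library totals). Against +Asn, 164 rose and 181 fell in -Asn+Fe (background 32.9% and 31.9%; 223 and 128 with library totals). Without -Asn replicate 1, the RNA library that stood apart, the counts were 172 and 194, 92 and 96, and 179 and 194 in the same order of comparisons.

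Width and host RNA were only weakly related across regions. Across the 565 members with a tested host, the log2 width change and the log2 RNA change in -Asn had Pearson's r of 0.14 and a Spearman coefficient of 0.10, a weak description over regions that share libraries and, in part, hosts. Of 134 wider members with a tested host, 52 (38.8%) lay in a host that rose and 43 (32.1%) in one that fell. Of 424 members not called, 122 (28.8%) and 171 (40.3%) did. Of 97 wider members whose host had a constant promoter region at its outer 5′ end, that promoter region was wider for 12 (12.4%) and narrower for 1. For members not called it was wider for 45 of 334 (13.5%), and 12.9% of all constant promoter regions were wider.

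**Figure D5:**
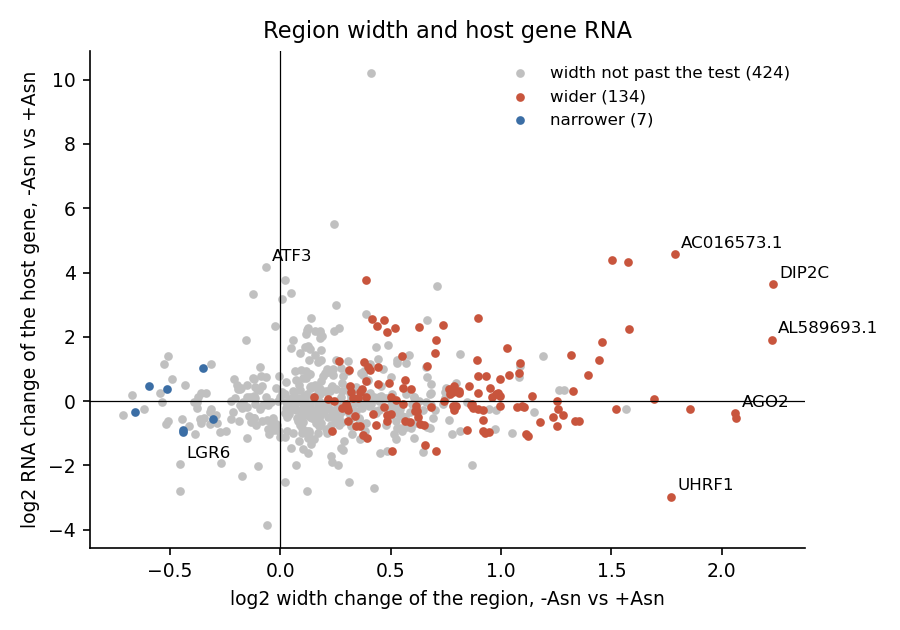
Log2 RNA change of the host gene (edgeR) against log2 width change of the region (limma), both from +Asn to -Asn, for the 565 constant intronic regions with a tested host; red regions are wider, blue narrower, grey neither. DIP2C and AC016573.1 lie high on both axes, and UHRF1 pairs a wider region with lower RNA.

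Some hosts with large changes show the range. DIP2C RNA was at 1.42, 1.09 and 1.26 CPM in +Asn, 16.8, 15 and 15.4 CPM in -Asn and 11.4, 12.3 and 13.2 CPM with iron, so that the RNA rose where the region had widened (RNA log2 3.64, SE 0.13, edgeR adjusted p = 8.57e-13). AC016573.1, a lncRNA gene, rose from 0.652 ± 0.134 CPM (SD, n = 3) to 15.6 ± 0.837 (log2 4.58, edgeR adjusted p = 1.28e-13). Its region (chr5:173396787-173398872) covered 526, 583 and 511 bp in +Asn and 2052, 1951 and 1609 bp in -Asn (log2 1.79, limma adjusted p = 5.12e-06).

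UHRF1, which maintains DNA methylation in dividing cells, went the other way. Its RNA fell from 950 ± 16.4 CPM (SD, n = 3) with asparagine to 122 ± 5.17 without it and 82.6 ± 2.53 with added iron (log2 -2.97 and -3.52, edgeR adjusted p = 5.00e-15 and 8.60e-16). The region in one of its introns (chr19:4914370-4917404) covered 540, 1083 and 810 bp in +Asn, 2354, 2896 and 2755 bp in -Asn, and 3026, 2598 and 2760 bp in -Asn+Fe. It was therefore wider in every asparagine-free library while the RNA was lower in every one (log2 width 1.77, limma adjusted p = 0.000399).

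Of the other hosts with the largest RNA changes, SLC12A8, a solute carrier gene, rose from 1.17 to 23.7 CPM (log2 4.34) with a wider region (log2 1.57, limma adjusted p = 0.00189). ATF3, a transcription factor gene of the amino acid response, rose from 4.13 to 74.3 CPM (log2 4.17) with a region that did not pass (log2 width -0.07, adjusted p = 0.693). DEPP1, an autophagy regulator, fell from 37.2 to 5.39 CPM, FRMD4A, a FERM domain gene, from 35.2 to 6.15, and SLC19A1, the reduced folate carrier, from 55.5 to 14.1. Their 6 regions did not pass the width test (adjusted p from 0.081 to 0.949). RNA changes of this size were thus seen with and without a called width change.

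With iron added, NEB, the nebulin gene, rose from 7.3 ± 1.02 to 24.7 ± 0.695 CPM (SD, n = 3; log2 1.76, edgeR adjusted p = 4.01e-08 against -Asn), after 0.615 CPM in +Asn. ZMAT3, a p53 target gene, rose by log2 1.12, TEC, a tyrosine kinase gene, by 0.92 and SH3PXD2A, a podosome scaffold gene, by 0.85. AC080038.1, whose gene ID the name table gives as MRC2, fell by 1.04, and HIVEP3, VSIR and SLC12A8 fell by 0.85 each. No region in these genes passed the width test in this comparison. CXXC5, a CpG-binding protein gene, was among the lowest of -Asn+Fe against +Asn (RNA log2 -2.30), and its region was wider there (log2 0.35, limma adjusted p = 0.0427). That width call was not followed under the alternatives.

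Among known targets of KMT2A fusions, 9 of 28 listed genes held 11 members. In -Asn 1 of them was wider and in -Asn+Fe 2 were wider than in +Asn, with none narrower. The shares wider were 14.6% and 11.7% over all constant regions and 21.7% and 19.7% over the constant intronic regions. Their median log2 width change was 0.09 in -Asn and 0.12 in -Asn+Fe. The medians were 0.09 and 0.07 over all constant regions and 0.24 and 0.23 over the constant intronic regions. The region in MEF2C, a transcription factor gene (chr5:88866033-88868853), covered 475, 958 and 384 bp in +Asn, 1296, 2583 and 1758 bp in -Asn and 2020, 1710 and 2076 bp in -Asn+Fe. The log2 changes were 1.69 and 1.79 (SE 0.32, limma adjusted p = 0.00714 and 0.00586), and both calls were lost when the outer span was measured in place of covered width. MEF2C RNA did not pass the test in -Asn (log2 0.07, edgeR adjusted p = 0.484), but rose with library totals (log2 0.28, adjusted p = 0.00816) and without -Asn replicate 1 (0.15, 0.0242). RUNX1 held the other wider region (chr21:35528556-35529716, log2 0.39 in -Asn+Fe, adjusted p = 0.0404). That call was not followed under the alternatives. The widest RUNX1 region did not pass in -Asn (log2 0.09, limma adjusted p = 0.7). The regions in CDK6, JMJD1C, GNAQ, DOT1L, ZEB2 and ARID1B had log2 changes of -0.51 to 0.17 in -Asn and did not pass. The RNA of 4 of the 9 genes rose in -Asn (ARID1B by log2 1.40, JMJD1C 0.74, GNAQ 0.51, ZEB2 0.33) and 4 fell (DOT1L -0.63, RUNX1 -0.53, CDK6 -0.47, MBNL1 -0.33), beside 31% higher and 30.2% lower over all tested genes. The CDK6 call was lost with library totals, without the low-count filter and with a stricter one, and its -Asn replicate 1 was at 1490 CPM against 2400 and 2480 in the other -Asn libraries.

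Among B lineage regulators and signalling genes, 6 of 35 held 10 members. In -Asn 2 were wider and 1, in PTPRC, was narrower, with a median log2 change of 0.32. Over all constant regions 14.6% were wider and 1.45% narrower, with a median of 0.09. Over the constant intronic regions these values were 21.7%, 1.19% and 0.24. The wider ones were in ERG (chr21:38487997-38490110, log2 1.11, limma adjusted p = 0.0114) and ETS1 (chr11:128548291-128549716), both ETS family transcription factor genes. This ERG call was not followed under the alternatives. The widest ERG region, a different one, did not pass (log2 0.78, limma adjusted p = 0.121), but did by outer span (1.10, 0.0383). The ETS1 region covered 1118, 1110 and 990 bp in +Asn and 1300, 1387 and 1291 bp in -Asn (log2 0.31, adjusted p = 0.043), a call lost under 10 alternatives. The RNA of PTPRC rose (log2 0.47) where its region narrowed, and that of ERG fell (-1.02), as did TCF12 (-0.91), ETS1 (-0.63), ETV6 (-0.26) and BACH2 (-0.26), beside 30.2% of all tested genes lower. With library totals the ETV6 and BACH2 calls were lost, and ETV6 changed sign in -Asn+Fe against +Asn. The summed precursor B cell markers fell over the same media by the values given above, and their part in these RNA changes was not tested.

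Histone methylation enzymes held few members. JMJD1C, DOT1L and SETD1B, 3 of 35 listed genes, held 4, with a median log2 change of 0.05 in -Asn, and none passed the width test. In -Asn, 14.6% of all constant regions and 21.7% of the constant intronic regions were wider, with medians of 0.09 and 0.24. JMJD1C, related to H3K9 demethylases, held the widest of the 4 (4877 bp on average, chr10:63491562-63497385). That region was narrower in -Asn+Fe than in +Asn with centred widths (log2 -0.25, limma adjusted p = 0.00692) and with cyclic loess (-0.21, 0.0241). In -Asn the RNA of 1 of the 3 genes, JMJD1C, was higher and that of 2 lower, beside 31% higher and 30.2% lower over all tested genes. RNA of DOT1L, the H3K79 methyltransferase, and of SETD1B, an H3K4 methyltransferase, fell by 0.63 and 0.62 on the log2 scale in -Asn, and SETD1B RNA rose by 0.48 on adding iron (edgeR adjusted p = 9.25e-05).

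Of 24 amino acid response and iron genes, ATF3 and SLC7A5 held 1 member each, with a median log2 change of 0.07 in -Asn and 0.29 in -Asn+Fe. The medians were 0.09 and 0.07 over all constant regions and 0.24 and 0.23 over the constant intronic regions. Wider in -Asn+Fe than in +Asn were 1 of these 2 members, 11.7% of all constant regions and 19.7% of the constant intronic regions. The SLC7A5 region, in the gene of a large neutral amino acid transporter (chr16:87856308-87857698), covered 579, 630 and 668 bp in +Asn, 744, 744 and 669 bp in -Asn, and 1220, 835 and 897 bp in -Asn+Fe. It was wider in -Asn+Fe than in +Asn (log2 0.64, SE 0.15, limma adjusted p = 0.0189), a call lost without -Asn+Fe replicate 1, without +Asn replicate 1 and with cyclic loess. SLC7A5 RNA rose in both media (416 ± 20.5, 765 ± 16.4 and 868 ± 28.1 CPM, SD, n = 3).

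The genes that held most members held blocks of different width. In FIRRE the 10 regions averaged 403.7 to 1174 bp. One (chrX:131728401-131729951) covered 816, 899 and 877 bp in +Asn, 1105, 1296 and 1270 bp in -Asn, and 1391, 1381 and 1534 bp in -Asn+Fe (log2 0.50 and 0.73, limma adjusted p = 0.00469 and 0.00051). Another of 493 bp on average (chrX:131812666-131813351) passed in both comparisons (adjusted p = 0.0281 and 0.0473), but both calls were lost under 7 or more alternatives. Another (chrX:131762994-131763853) passed in -Asn+Fe (log2 0.66, adjusted p = 0.0107), a call lost with cyclic loess and with the outer span. FIRRE RNA stood at 25 ± 2.45, 27.2 ± 1.27 and 23.5 ± 1.77 CPM (SD, n = 3) and did not pass the test, except in -Asn with library totals (log2 0.33, edgeR adjusted p = 0.00437) and with a stricter low-count filter (0.24, 0.029).

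In BCOR the block with the CpG-rich start printed above averaged 2605 bp (chrX:40104464-40107268) and did not pass (log2 0.11, limma adjusted p = 0.13). The next one (chrX:40108714-40110273) covered 1247, 1283 and 1204 bp in +Asn, 1455, 1509 and 1429 bp in -Asn, and 1280, 1278 and 1326 bp in -Asn+Fe. It was wider in -Asn (log2 0.23, adjusted p = 0.023), a call lost under 7 alternatives. BCOR RNA fell in -Asn (log2 -0.92, edgeR adjusted p = 3.59e-08). None of the 4 GRAMD4 or 3 AC093916.1 regions passed, and 1 of 3 in AL445242.1 was wider in -Asn+Fe (log2 0.56, adjusted p = 0.045, lost under 8 alternatives). AC093916.1 held a wide block (chr4:132262432-132266507, 3862 bp on average) although its RNA was at 0 counts in 8 of 9 libraries. With widths centred on library medians this block was narrower in both asparagine-free media (log2 -0.17 and -0.13 against +Asn, limma adjusted p = 0.00487 and 0.022), and with cyclic loess in -Asn (adjusted p = 0.0276).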

How the data were processed

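RNA and H3K4me3 were measured in 9 libraries each, 3 per medium, grouped by the labels, with columns called untreated read as +Asn. The authors deposited raw gene counts for RNA, with STAR 2.7.2a, Subread 1.6.5 with featureCounts, and bcl2fastq named in the submitters' processing notes for hg38. Whether counting used strand or multi-mapping reads is not given in the sources used here, which makes overlapping and antisense genes such as HPN-AS1 uncertain. The deposited H3K4me3 table holds peak positions per library inside merged regions, with no heights or counts, and the submitters' processing notes name MACS2 2.2.7.1, Bowtie2 2.4.4 and Picard 2.18.26 (hg38). How peaks were thresholded and whether inputs served is not given in the sources used here. Its lines have 13 fields under 12 names, and the last 9 were read as libraries. Coordinates are hg38, with introns as the gaps between all listed exons of a gene. Where genes overlap, a region was given 1 primary host.

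Log2 covered width was fitted with limma 3.58.1 (trend) over 13883 regions, and RNA with edgeR 4.0.16 (TMM, filterByExpr, robust quasi-likelihood test) in R 4.3.3, each over 9 libraries without a replicate block. Every p-value was adjusted by Benjamini-Hochberg over the whole table. Both fits were tested on simulated data. DESeq2 1.42.0 was an alternative, beside other scalings, filters and left-out libraries. Python 3.11.15 with pandas 2.3.3, numpy 2.4.6 and matplotlib 3.10.9 were used for tables and figures. RefSeq starts and windows come from GRCh38.p14 tables, and 709 of 711 host IDs were found in the name table. No genome was at hand, so sequence of the regions themselves was not examined, in place of the planned stretches.

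Regions named were, per comparison and direction, up to 5 called members with the largest change and no overlap between media, the 6 widest, the 3 nearest to each side of the 1 kb limit, members in 4 gene lists, and those of the 6 genes holding most. The tie at 3 members per gene was cut in order of gene name. Host genes named had the 4 largest called RNA changes per direction with at least 5 CPM on average and no overlap. The ERG and RUNX1 regions that were called, and the regions of UHRF1, AC016573.1, SLC12A8 and CXXC5, were chosen after their values were seen. Alternatives for single regions were followed only for regions named by the rules above, not for these. MBNL1 was named to complete its list. The members and lists were chosen with earlier results of these data known.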

Additional observations from a re-analysis of the deposited data

How the results depend on the processing

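The number of members was 423 when at least 500 bp had to be covered in every library, 722 with a distance of 2 kb and 719 with the 5′ ends of all gene types. For wider members in -Asn against +Asn the count was 86 with cyclic loess, chosen after seeing the data, and 102 among regions of at least 500 bp, and leaving out 1 library at a time gave 74 to 200. For narrower members it was 23 with widths centred on library medians, 30 with cyclic loess, and 6 to 13 leaving out 1 library. In -Asn+Fe against +Asn, wider members numbered 76 with cyclic loess, 78 among regions of at least 500 bp, and 54 to 161 leaving out 1 library, and narrower members 32 centred, 34 with cyclic loess and 11 to 19 leaving out 1 library. Between -Asn+Fe and -Asn the counts were 0 under all width alternatives run. The cause of these shifts was not tested.

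Counts of host genes that rose or fell stayed within 1.5 times of those reported under all alternatives run. Of 556 alternatives for 38 called widths of named regions, 482 kept call and direction and 74 lost the call. Of 1757 for 110 called host RNA results, 1679 kept both, 77 lost the call and 1 changed sign: ETV6 in -Asn+Fe against +Asn was at a log2 change of 0.0212 with library totals, against -0.23. Among named results not called, alternatives gave 36 calls for widths and 33 for host RNA.

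A fit with the replicate number as a block gave 131 wider and 7 narrower members in -Asn, 0 and 0 for iron, and 108 and 13 in -Asn+Fe against +Asn. For host RNA the block gave 161 and 185, 86 and 73, and 161 and 174. Libraries with the same number did not deviate together (r from -0.21 to 0.0933 for widths and -0.0806 to 0.0721 for RNA), and 3 of 9 libraries of each kind correlated best with their own number, so the numbers were not read as pairs. Peak width without read counts limits what can be said of the amount of the mark.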

Other observations

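Genes of types that the rule did not use lay near some members. Exons of pseudogenes, small RNAs or other such types overlapped 29 members (3.84%), and 36 (4.77%) lay within 1 kb of the 5′ end of one. RefSeq microRNA hairpins fell inside 2 members, MIR4487 in AC090559.1, and MIR199B with MIR3154 in DNM1. Another H3K4me3 region lay within 2 kb of 169 members (22.4%), and a constant promoter region within 10 kb of 135 (17.9%).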
